A study of Homo sapiens with 24 samples.

Results

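The ERBB receptor genes and the genes of the EGF family ligands were examined in 3 human breast cancer cell lines in which the lactate transporter MCT1 was inhibited or targeted by an shRNA. The set was a list of 10 genes, the receptors EGFR, ERBB2 and ERBB3 and the ligands AREG, EREG, HBEGF, TGFA, BTC, EPGN and NRG1, taken by name and not by any measured value. The annotation used here named 8 of them. They had 34 of the 54675 probe sets on the array, a probe set being a group of short array features that report 1 transcript region. AREG and EPGN were not named there and were not analysed here. Of the 34 probe sets, 22 were bright enough to be tested and 12 were not. EGFR had 9 probe sets (4 tested), ERBB2 had 3 (1 tested), ERBB3 had 5 (4 tested), EREG had 2 (both tested), HBEGF had 4 (2 tested), TGFA had 3 (2 tested), BTC had 2 (1 tested) and NRG1 had 6 (all tested).

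ERBB receptors are membrane tyrosine kinases that pair up when a ligand binds and then signal through the RAS to ERK and the PI3K to AKT routes. The ligands are made as membrane-bound precursors and are released at the cell surface by ADAM metalloproteases, so a cell can stimulate itself or its neighbours. TGFA, amphiregulin (AREG) and epigen (EPGN) bind EGFR, while HBEGF, epiregulin (EREG) and betacellulin (BTC) can also act through ERBB4. Among the receptors of the set, neuregulin 1 (NRG1) binds ERBB3, whose own kinase is weak. ERBB3 signals by pairing with another receptor such as ERBB2, itself without a known ligand of its own.

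There were 24 arrays in 8 groups of 3. In the inhibitor experiment HS578T, SUM149PT and SUM159PT cells received AZD3965, a small-molecule inhibitor of MCT1, or its vehicle DMSO for 24 h. In the shRNA experiment SUM149PT cells carried a lentiviral shRNA against MCT1 or a scramble shRNA, and both groups had 5 days of puromycin at 2 µg/ml. All are established cell lines, and each result rests on single lines. The labels give the medium of SUM149PT and SUM159PT as containing EGF at 10 ng/ml, insulin at 10 µg/ml and hydrocortisone at 10 µg/ml, and name none of these for HS578T. Since EGF is itself an EGFR ligand, line and medium cannot be told apart in any comparison with HS578T. Nothing in the labels says that the 3 arrays of a group came from separate cultures, and a p-value here reflects no more than the array-to-array spread, possibly technical. The level of the shRNA's target was not analysed here, so the knockdown labels were not checked.

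Promoter sequence is shown for the 3 ligand genes on which the results below turn: EREG and TGFA, which differed most between lines, and HBEGF, the 1 gene of the set that passed the test after a treatment. Each run gives the 150 bases before the gene's start in RefSeq (GRCh38.p14), 5′ to 3′ on the gene's own strand. EREG is chr4:74364995-74365144 on the plus strand, TGFA is chr2:70553827-70553976 on the minus strand and HBEGF is chr5:140346604-140346753 on the minus strand. Capitals mark matches to the letters TATAAA (the TATA box) or GGGCGG (the GC box), each searched on both strands.
EREG: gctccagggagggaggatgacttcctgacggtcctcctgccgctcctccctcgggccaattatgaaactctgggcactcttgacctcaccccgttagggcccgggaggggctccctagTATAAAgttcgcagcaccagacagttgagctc
TGFA: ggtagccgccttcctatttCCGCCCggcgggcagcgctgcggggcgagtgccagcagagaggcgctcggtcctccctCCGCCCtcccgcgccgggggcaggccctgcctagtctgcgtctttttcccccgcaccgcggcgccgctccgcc
HBEGF: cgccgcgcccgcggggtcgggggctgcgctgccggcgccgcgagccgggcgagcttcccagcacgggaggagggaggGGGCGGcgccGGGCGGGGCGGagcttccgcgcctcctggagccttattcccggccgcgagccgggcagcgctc
The EREG window held 1 TATAAA, starting at position -32 from the gene start, and no GGGCGG. The TGFA window held 2 GGGCGG matches and the HBEGF window held 3, of which the last 2 overlap by 1 base, and neither held TATAAA. Among 35114 promoter windows of the same length 6.71% held TATAAA, and GGGCGG was found in 36.8% of them. The letters TGANTCA of an AP-1 site were in none of the 3 windows and in 4.17% of all. Guanine and cytosine made up 60.7% of the EREG window, 76.0% of the TGFA window and 82.7% of the HBEGF window. These matches are descriptions of sequence and say nothing about binding.

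EREG also lies in a cluster of ligand genes. EPGN, EREG, AREG and BTC occupy chr4:74308470-74794523, a stretch of 486.1 kb in which they were the only protein-coding genes lying wholly inside. The RefSeq promoter windows of EPGN and AREG, like that of EREG, held 1 TATAAA each, starting at position -29 in both, and that of BTC held none.

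The deposited signals had been scaled to 1 common level, and the correlation of each array with the others of its group averaged between 0.974 and 0.986 across probe sets. Scramble shRNA array 3 stood apart, with a 3' to 5' signal ratio of the actin control probes of 53.8, beside 1.20 to 2.14 on the other arrays. Where a named shRNA call was lost without this array, that is therefore stated, as is any ERBB or ligand call gained without it. Signals are relative and specific to a probe set, so levels were compared between arrays and never between genes. Differences are on the scale of log2 of the signal plus 16, with standard errors (SE) from limma. A probe set was said to pass when its p-value, adjusted over all 32768 probe sets tested, was below 0.05.

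The 3 lines differed widely in their ligand genes when all were under DMSO. HS578T had EREG and TGFA signals near the array's floor where SUM149PT had over 1000 units, and ERBB3 was high in SUM149PT and near the floor in the other lines. NRG1 ran the other way, lower in SUM149PT than in HS578T or SUM159PT by most of its probe sets. Of the 22 probe sets tested, 16 passed for HS578T against SUM149PT, with 7 higher and 9 lower in HS578T and all 8 genes represented, and 55.4% of all probe sets passed. For HS578T against SUM159PT 11 passed (6 higher and 5 lower, 5 genes), beside 48.2% of all. For SUM149PT against SUM159PT 15 passed (9 higher and 6 lower, all 8 genes), beside 50.4% of all. The median difference of the 22 was -0.26, 0.20 and 0.10 on the log2 scale in those 3 comparisons, beside 0.04, -0.02 and -0.07 over all probe sets tested. The share of ERBB and ligand probe sets that passed was thus 50.0% to 72.7% where about 1 in every 2 of all probe sets passed, and it is the sizes that follow that describe the set.

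**Figure D1:**
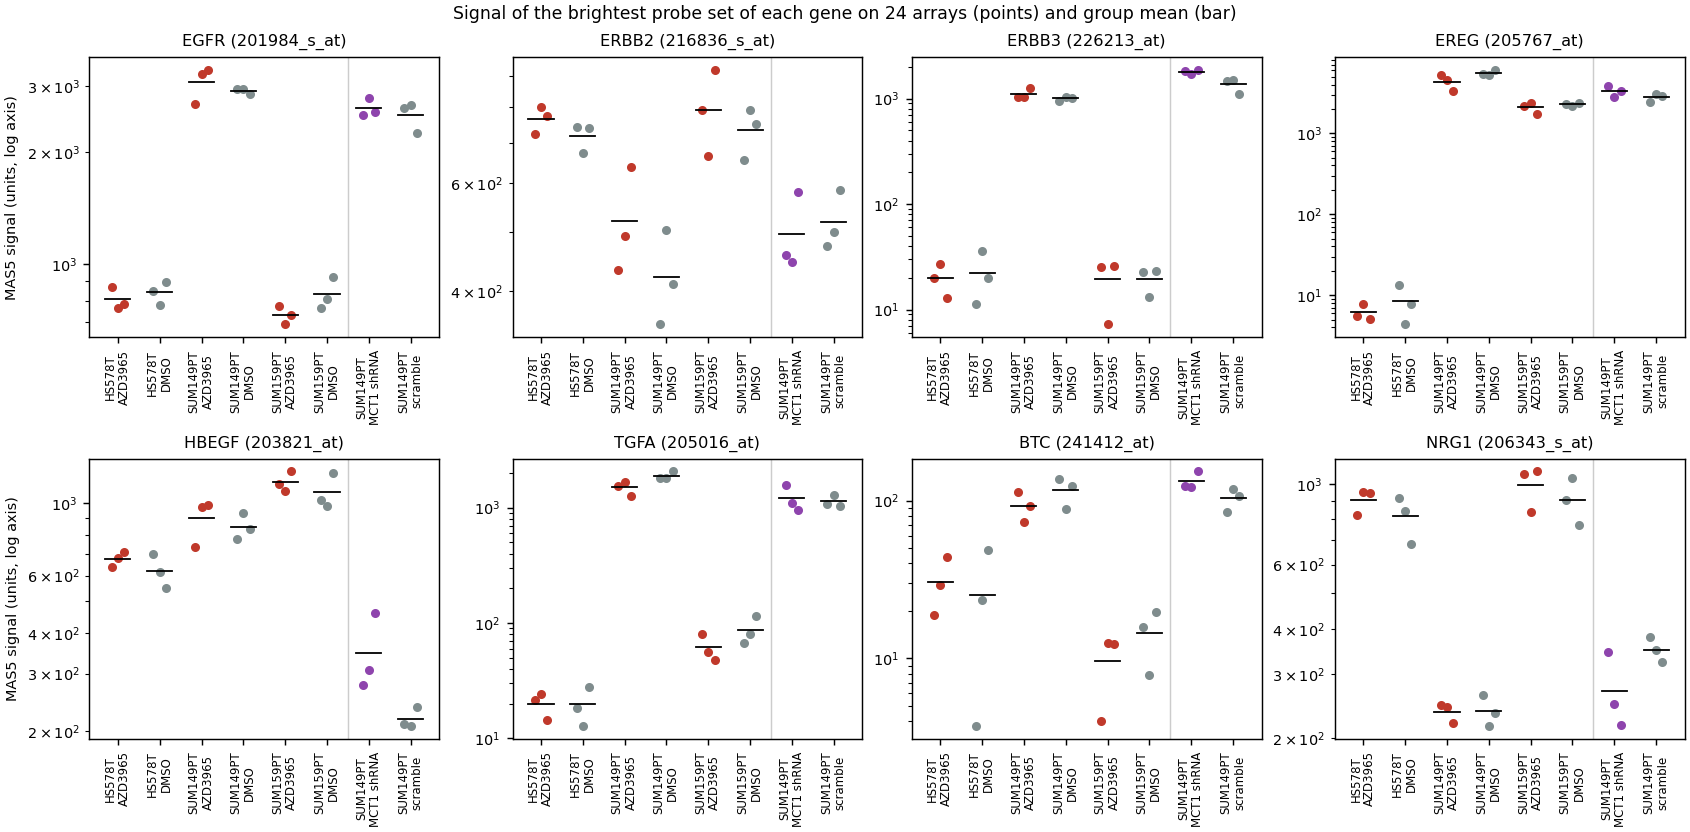
Signal of the brightest probe set of each of the 8 genes on the 24 arrays (log axes, MAS5 units), with points for arrays and bars for group means, and the shRNA experiment right of the grey line. EREG, TGFA and ERBB3 span the widest ranges between lines, and HBEGF is the gene whose MCT1 shRNA arrays (276 to 460 units) all lie above the scramble shRNA arrays (207 to 236 units) and passed the test.

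Among the receptors, ERBB3 differed most. Its brightest probe set (226213_at) read 11.4, 36.1 and 19.7 units on the HS578T arrays under DMSO, 949, 1044 and 1021 on the SUM149PT arrays and 22.5, 13.2 and 23.1 on the SUM159PT arrays. SUM149PT lay above both other lines on every array, and HS578T and SUM159PT overlapped. The log2 difference was -4.78 ± 0.23 for HS578T minus SUM149PT (limma adjusted p = 1.71e-14) and 4.85 ± 0.23 for SUM149PT minus SUM159PT (adjusted p = 1.89e-14). With an offset of 1 or 64 in place of 16, the HS578T minus SUM149PT value was -5.57 or -3.64. HS578T and SUM159PT were not told apart (0.07 ± 0.23, adjusted p = 0.830, 95% interval of the difference -0.40 to 0.54). A further ERBB3 probe set, 202454_s_at, gave the same order, with -3.73 ± 0.23 for HS578T minus SUM149PT. The probe sets 1563253_s_at and 215638_at passed in none of the 3 line comparisons, although without SUM149PT array 3 1563253_s_at lay 0.93 higher in HS578T than in SUM149PT (adjusted p = 0.0389).

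EGFR, the receptor for most of these ligands, was measured by probe sets that disagreed. The brightest, 201984_s_at, read 851, 779.5 and 898 units in HS578T, 2946, 2947 and 2865 in SUM149PT and 765, 808 and 924 in SUM159PT. It was thus higher in SUM149PT than in either other line on every array, by 1.80 ± 0.09 against SUM159PT (adjusted p = 1.75e-13), and was -1.78 ± 0.09 for HS578T minus SUM149PT (adjusted p = 1.50e-13). HS578T minus SUM159PT was 0.02 ± 0.09 there (adjusted p = 0.888).

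The probe set 201983_s_at read 1161, 1090 and 1154 units in HS578T, 1630, 803 and 837 in SUM149PT and 671, 525 and 497 in SUM159PT. HS578T and SUM149PT overlapped here, at 0.14 ± 0.21 (adjusted p = 0.624), and HS578T was higher than SUM159PT by 1.00 ± 0.21 (adjusted p = 0.000390). Without the brightest SUM149PT array HS578T was higher than SUM149PT by 0.46 (adjusted p = 0.0391), the opposite order to that of 201984_s_at. Another probe set, 224999_at, read 1879, 1856 and 2002 units in HS578T, 3131, 2148 and 2274 in SUM149PT and 1176, 891 and 850.1 in SUM159PT. Its HS578T minus SUM149PT value was -0.37 ± 0.21 (adjusted p = 0.138, and 0.0341 with only the arrays compared), and HS578T exceeded SUM159PT by 0.98 ± 0.21 (adjusted p = 0.000419). All 3 bright probe sets placed SUM149PT above SUM159PT, with 0.86 ± 0.21 for 201983_s_at and 1.35 ± 0.21 for 224999_at.

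Under DMSO the 6 dimmer EGFR probe sets differed in which line averaged highest, HS578T for 4 and SUM149PT for 2. For 211551_at the HS578T arrays read 118 to 171 units, above all SUM149PT arrays (56.0 to 92.6) and SUM159PT arrays (62.6 to 106), and HS578T was higher by 0.82 ± 0.22 and 0.71 ± 0.22 (adjusted p = 0.00289 and 0.0102). The second of these was lost when HS578T array 2 was left out (0.60, adjusted p = 0.0563) or SUM159PT array 2 (0.55, adjusted p = 0.0689). The untested 210984_x_at read 136, 162 and 115 units in HS578T, at most 50.5 in SUM149PT and at most 8.30 in SUM159PT, all under DMSO. The untested 211607_x_at read 96.0 to 112 units in HS578T, 35.4 to 57.2 in SUM149PT and 4.75 to 22.5 in SUM159PT. The untested 1565483_at read 53.9 to 69.9 units in HS578T, 16.7 to 43.1 in SUM149PT and 10.9 to 55.5 in SUM159PT. For 1565484_x_at the 3 lines overlapped, at 14.0 to 37.2, 21.9 to 37.4 and 10.4 to 35.9 units in that order. SUM149PT was highest without overlap by 211550_at, at 13.7 to 56.9 units, with 12.1 to 13.4 in HS578T and 1.96 to 7.69 in SUM159PT. When all probe sets were tested by limma, 210984_x_at passed for HS578T above SUM149PT (1.94, adjusted p = 0.000468) and above SUM159PT (2.71, adjusted p = 1.03e-05). HS578T also passed above SUM159PT by 211607_x_at (2.095, adjusted p = 0.000101). SUM149PT passed above SUM159PT by 211607_x_at (1.17, adjusted p = 0.0200) and by 211550_at (1.06, adjusted p = 0.000678). Whether the probe sets report different EGFR transcripts was not tested.

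**Figure D2:**
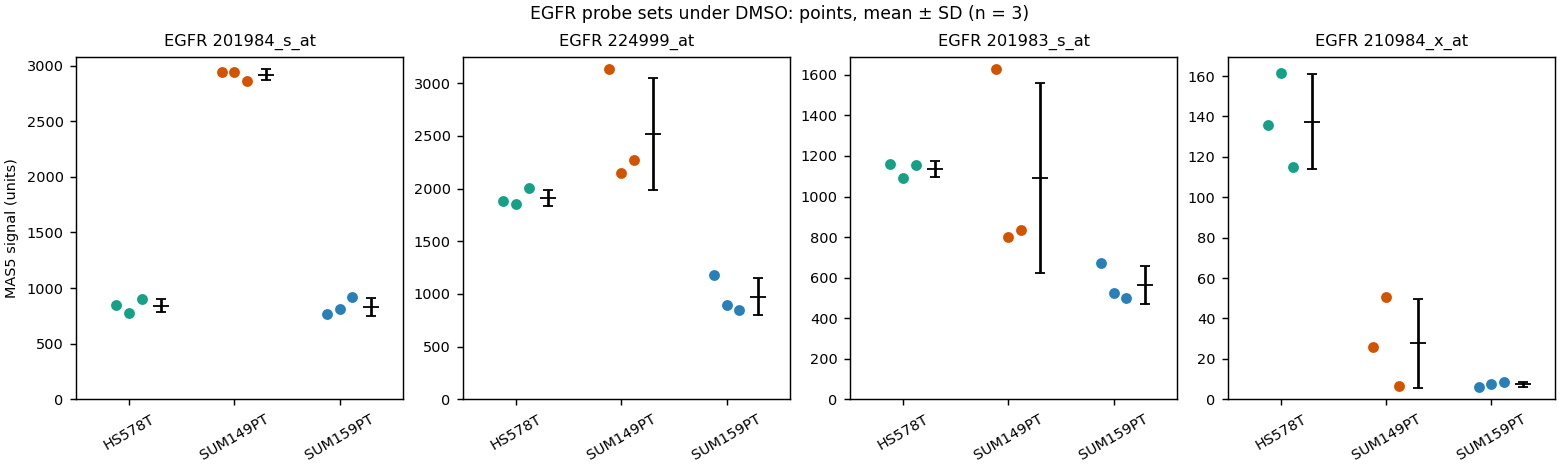
Signals of 4 EGFR probe sets under DMSO (linear axes from 0, MAS5 units), with a point per array and the mean ± SD of 3 arrays. By 201984_s_at SUM149PT is highest (2919 ± 47.3 units), whereas by 210984_x_at, which was too dim on average to be tested, HS578T is highest.

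ERBB2 differed less. Its tested probe set (216836_s_at) read 742, 673 and 739 units in HS578T, 353, 503 and 411 in SUM149PT and 656, 791 and 752 in SUM159PT. SUM149PT was lowest with no overlap, at 0.76 ± 0.15 for HS578T minus SUM149PT (adjusted p = 0.000133) and -0.78 ± 0.15 for SUM149PT minus SUM159PT (adjusted p = 0.000106). HS578T and SUM159PT overlapped, at -0.03 ± 0.15 (adjusted p = 0.907), with a 95% interval of the difference of -0.33 to 0.28. The untested ERBB2 probe sets 234354_x_at and 210930_s_at stayed at or below 94.3 units on all 24 arrays. When all probe sets were tested, 234354_x_at passed by limma for HS578T above SUM149PT (1.39, adjusted p = 0.00860). It also passed for HS578T above SUM159PT (1.21, adjusted p = 0.0247), where 216836_s_at showed no difference.

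Epiregulin showed the largest difference of the set. Its brightest probe set (205767_at) read 13.4, 4.36 and 7.76 units in HS578T, 5322, 5243 and 6078 in SUM149PT and 2283, 2156 and 2397 in SUM159PT. The 3 lines did not overlap, in the order HS578T, SUM159PT and SUM149PT from low to high. The log2 difference was -7.84 ± 0.15 for HS578T minus SUM149PT (adjusted p = 2.37e-21), -6.57 ± 0.15 for HS578T minus SUM159PT (adjusted p = 9.66e-20) and 1.28 ± 0.15 for SUM149PT minus SUM159PT (adjusted p = 2.26e-07). The HS578T signal lay under the offset, which sets the size of the first 2: they were -9.30 and -8.02 with an offset of 1, and -6.27 and -5.02 with an offset of 64. The dimmer 1569583_at gave -2.67 ± 0.33 and -1.88 ± 0.33 for HS578T against SUM149PT and SUM159PT, and did not separate SUM149PT from SUM159PT (0.79 ± 0.33, adjusted p = 0.0517). That last difference passed with quantile normalization, median centring, an offset of 64 or array weights (adjusted p = 0.0437, 0.0351, 0.0359 and 0.0296), and without SUM149PT array 3 or SUM159PT array 3 (adjusted p = 0.0159 and 0.0248).

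TGFA, a ligand of EGFR alone, was also low in HS578T. The probe set 205016_at read 18.5, 12.8 and 28.2 units in HS578T, 1812, 1800 and 2062 in SUM149PT and 67.1, 80.6 and 115 in SUM159PT. No line overlapped another, and SUM159PT lay much nearer to HS578T than to SUM149PT, unlike for EREG. The log2 differences were -5.75 ± 0.20 for HS578T minus SUM149PT, -1.53 ± 0.20 for HS578T minus SUM159PT and 4.23 ± 0.20 for SUM149PT minus SUM159PT (adjusted p = 9.65e-17, 1.29e-06 and 3.53e-14). With offsets of 1 and 64 the HS578T minus SUM159PT value was -2.12 and -0.84. The dim 211258_s_at passed only for SUM149PT against SUM159PT (1.07 ± 0.40, adjusted p = 0.0307), a call that was lost without SUM149PT array 1 or 2 or SUM159PT array 2 (adjusted p = 0.0660, 0.0900 and 0.223).

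Betacellulin was dim throughout. Its tested probe set (241412_at) read 3.73, 23.6 and 48.9 units in HS578T, 138, 88.7 and 123 in SUM149PT and 15.8, 7.90 and 19.6 in SUM159PT. SUM149PT was above both other lines, by -1.82 ± 0.32 for HS578T minus SUM149PT (adjusted p = 3.82e-05) and 2.12 ± 0.32 for SUM149PT minus SUM159PT (adjusted p = 6.38e-06). HS578T and SUM159PT overlapped (0.30 ± 0.32, adjusted p = 0.481), though without HS578T array 1 the difference was 0.75 (adjusted p = 0.0407).

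HBEGF, which also serves as the receptor of diphtheria toxin, varied least among the ligand genes. The probe set 203821_at read 700.3, 617 and 548 units in HS578T, 778, 933 and 833 in SUM149PT and 1027, 979 and 1240 in SUM159PT. The arrays of the 3 lines did not overlap, and SUM159PT was highest. HS578T minus SUM159PT was -0.78 ± 0.15 (adjusted p = 0.000123). HS578T minus SUM149PT was -0.44 ± 0.15 (adjusted p = 0.0153), and lost its call without HS578T array 3 (adjusted p = 0.0791) or SUM149PT array 2 (adjusted p = 0.0714). SUM149PT minus SUM159PT was -0.34 ± 0.15 (adjusted p = 0.0619) by this probe set and -0.36 ± 0.13 (adjusted p = 0.0202) by 38037_at, whose call was lost without SUM149PT array 1 (adjusted p = 0.0909) or SUM159PT array 3 (adjusted p = 0.0868). The untested 244857_at and 222076_at reached at most 40.7 units on any array.

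Neuregulin 1 was lower in SUM149PT than in either other line by most of its probe sets. Its brightest probe set (206343_s_at) read 912, 844 and 684 units in HS578T, 263, 216 and 235 in SUM149PT and 906, 1037 and 770.2 in SUM159PT. SUM149PT was below both other lines without overlap, at 1.70 ± 0.15 for HS578T minus SUM149PT (adjusted p = 1.17e-09) and -1.85 ± 0.15 for SUM149PT minus SUM159PT (adjusted p = 3.75e-10). Of the 6 NRG1 probe sets, 5 passed for HS578T above SUM149PT, led by 206237_s_at at 3.79 ± 0.24, where the arrays read 467, 475 and 470.4 units in HS578T and 19.7, 33.1 and 8.88 in SUM149PT. With offsets of 1 and 64 that value was 4.63 and 2.67. For SUM149PT minus SUM159PT 208241_at (-0.59 ± 0.32, adjusted p = 0.137) and 208232_x_at (-0.16 ± 0.37, adjusted p = 0.762) did not pass. The other NRG1 probe sets passed, lower in SUM149PT.

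The NRG1 probe sets disagreed on HS578T against SUM159PT. The brightest gave -0.15 ± 0.15 (adjusted p = 0.451), whereas 206237_s_at gave 1.31 ± 0.24, 208231_at 1.14 ± 0.32 and 208241_at 1.00 ± 0.32, all 3 passing. For 206237_s_at the SUM159PT arrays read 198, 192 and 155 units, below every HS578T array. The call of 208241_at was lost without HS578T array 1, HS578T array 2 or SUM159PT array 1 (adjusted p = 0.0788, 0.0546 and 0.0567).

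**Figure D3:**
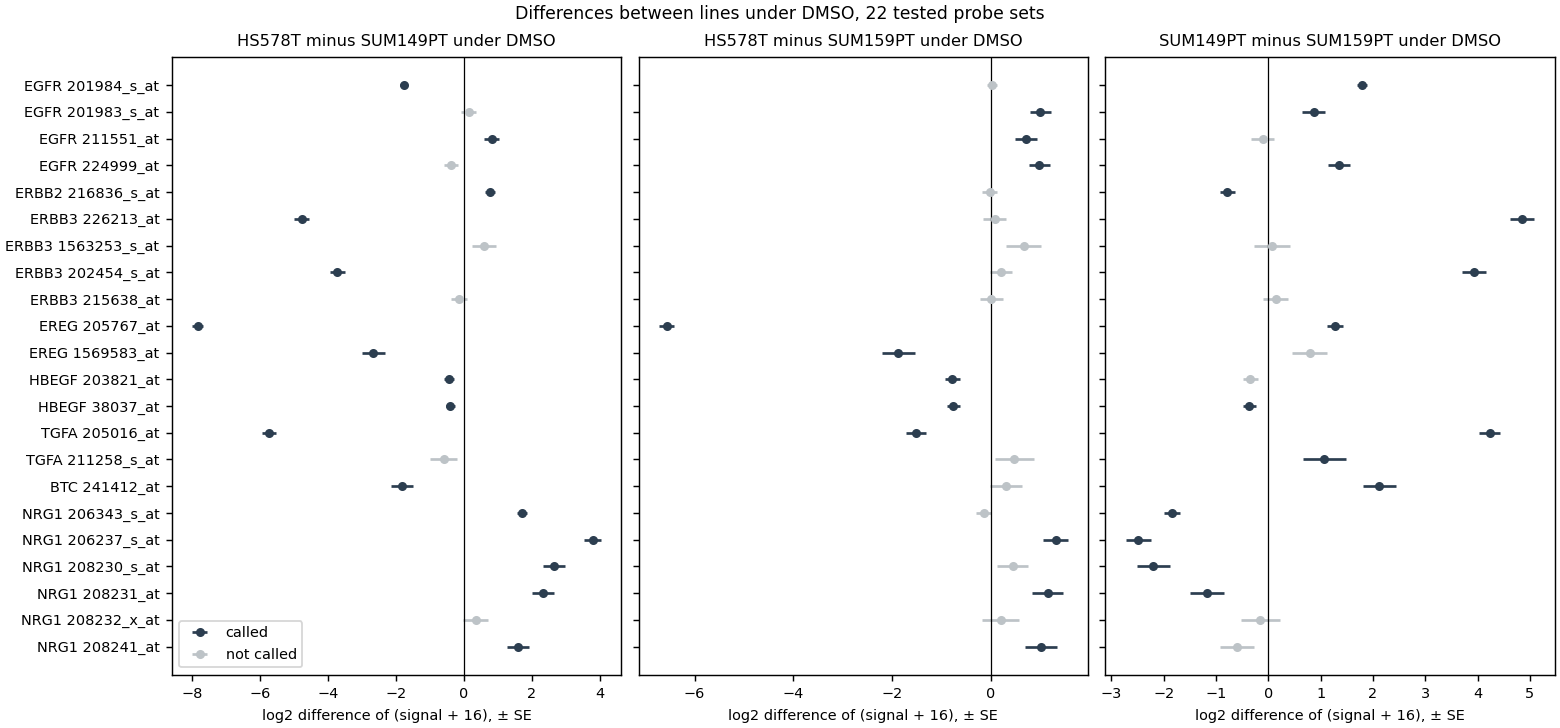
Log2 difference of (signal + 16) with SE for the 22 tested probe sets in the 3 pairs of lines under DMSO, dark where the adjusted p was below 0.05. Points right of 0 are higher in the first-named line, with EREG 205767_at at -7.84 and NRG1 206237_s_at at 3.79 at the ends of the first panel.

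Epithelial and mesenchymal markers also differed between the lines. The summed signal of 5 of 6 listed epithelial markers (EPCAM, CDH1, ESRP1, CLDN4 and GRHL2) was 128 to 192 units in HS578T, 29090 to 29430 in SUM149PT and 67.6 to 173 in SUM159PT under DMSO. That of 7 mesenchymal markers was 105200 to 114200 in HS578T, 29970 to 33150 in SUM149PT and 55910 to 60830 in SUM159PT. ZEB1 followed that order, averaging 4895, 86.1 and 3763 units in HS578T, SUM149PT and SUM159PT. Not every marker did: FN1 averaged 25530, 20370 and 16760 units, higher in SUM149PT than in SUM159PT. COL1A2 averaged 28580 units in HS578T and was dim in both other lines, at 28.7 and 71.2. ERBB3 and TGFA were high in the line with the epithelial markers, as was EREG, which was high in SUM159PT as well. The sums for markers of other cell types stayed at or below 504 units in all 3 lines under DMSO. The summed signal of 4 of 6 listed leukocyte markers was 95.7 to 168 units in HS578T, 374 to 459 in SUM149PT and 91.9 to 209 in SUM159PT, with CD14 averaging 389 in SUM149PT and PTPRC 11.4 to 39.0 in the 3 lines. That of 4 endothelial markers was 368 to 504 units in HS578T, 135 to 261 in SUM149PT and 177 to 261 in SUM159PT, with PECAM1 averaging 338 in HS578T. That of 3 adipocyte markers was 172 to 186 units in HS578T, 15.6 to 45.7 in SUM149PT and 122 to 188 in SUM159PT, with FABP4 averaging 161 and ADIPOQ 8.91 in HS578T. The part of these cell states in the results was not tested.

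The genes that process and answer the ligands also differed between lines. In a list of 10 ligand-processing genes, HS578T was higher than SUM149PT for 4 and lower for 4, beside 55.4% of all probe sets that passed (median of the list -0.06). ADAM12, a metalloprotease able to shed HBEGF, averaged 3554 ± 393 units in HS578T and 56.5 ± 6.79 in SUM149PT (SD, n = 3 each), a log2 difference of 5.62 ± 0.16. TIMP3, an inhibitor of ADAM17, averaged 2185 ± 271 units in HS578T and 41.3 ± 11.7 in SUM149PT (5.28 ± 0.18). ADAM17 itself, the main sheddase of TGFA, EREG and HBEGF, was lower in HS578T than in SUM149PT (-0.44 ± 0.06) and higher in SUM149PT than in SUM159PT (1.30 ± 0.06). CD9, a tetraspanin that binds the HBEGF precursor, was 2.24 ± 0.08 higher in SUM149PT than in SUM159PT.

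Of 14 tested feedback inhibitors of ERBB and ERK signalling, 10 passed for HS578T against SUM149PT (4 higher and 6 lower, median -0.14), beside 55.4% of all probe sets. For HS578T against SUM159PT 12 passed (3 higher and 9 lower, median -0.71), beside 48.2% of all, and for SUM149PT against SUM159PT 10 (3 higher and 7 lower, median -0.43), beside 50.4% of all. ERRFI1, which binds and inhibits the EGFR kinase, averaged 4065 ± 157 units in HS578T, 7706 ± 137 in SUM149PT and 11650 ± 133 in SUM159PT, and was lower in HS578T than in either. The ERK phosphatase gene DUSP4 was lower in HS578T than in SUM149PT by a log2 difference of -3.95 ± 0.12. DUSP5, another phosphatase of ERK, was lower in HS578T than in SUM159PT (-3.41 ± 0.11), and LRIG1, which promotes the loss of ERBB receptors, was higher (2.16 ± 0.14).

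Of 14 transcripts known to depend on ERK, 13 passed for HS578T against SUM149PT (4 higher and 9 lower), 11 for HS578T against SUM159PT (7 and 4) and 13 for SUM149PT against SUM159PT (8 and 5), beside 55.4%, 48.2% and 50.4% of all probe sets. LIF, a cytokine, averaged 1145 ± 151 units in SUM149PT and 35.1 ± 24.1 in SUM159PT (4.63 ± 0.28). The median of this list was -0.68, 0.21 and 0.64 in the 3 comparisons, beside medians of 0.04, -0.02 and -0.07 over all probe sets. Among 19 adaptors and early transducers 13, 14 and 11 passed, beside those same shares of all probe sets. CBLB, a ubiquitin ligase of activated receptors, was 2.14 ± 0.12 higher in HS578T than in SUM149PT, and PIK3R1, the regulatory subunit of PI3K, was -2.53 ± 0.21 for SUM149PT minus SUM159PT. ERBB4, EGF, NRG3 and NRG4 were all too dim to be tested.

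The shRNA comparison asked how SUM149PT cells differed when MCT1 was the target of the shRNA. HBEGF was the only gene of the set to pass, and it was higher with the MCT1 shRNA. The probe set 203821_at read 276, 308 and 460 units with MCT1 shRNA, against 210, 207 and 236 with scramble shRNA. The arrays did not overlap, and the difference was 0.61 ± 0.15 on the log2 scale (limma adjusted p = 0.0105). The second probe set, 38037_at, read 206, 172 and 148 units with MCT1 shRNA, against 112.0, 113 and 112 with scramble shRNA, also without overlap (0.56 ± 0.13, adjusted p = 0.00556). These were 2 of the 22 probe sets tested, or 9.09%, beside 10.5% of all probe sets tested in this comparison, so the count of the set was near the background. The median of the 22 was 0.27, beside 0.04 over all.

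Both calls depended on the spread shared by all 24 arrays: with the 6 shRNA arrays fitted alone the adjusted p was 0.175 for 203821_at and 0.161 for 38037_at. Without MCT1 shRNA array 3 the difference in 203821_at was 0.40 (adjusted p = 0.0862). Without scramble shRNA array 3 the values were 0.67 (adjusted p = 0.0128) and 0.56 (adjusted p = 0.0145). Summed luminal marker signal (6 of 6 listed) was 40390 to 44590 units with MCT1 shRNA and 26300 to 31600 with scramble shRNA. KRT19 averaged 12870 units with MCT1 shRNA and 6097 with scramble shRNA, KRT8 8556 and 5725, and KRT18 18120 and 15750. FOXA1, on the same list, ran the other way, at 110 and 124 units. The part of these markers in the result was not tested.

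**Figure D4:**
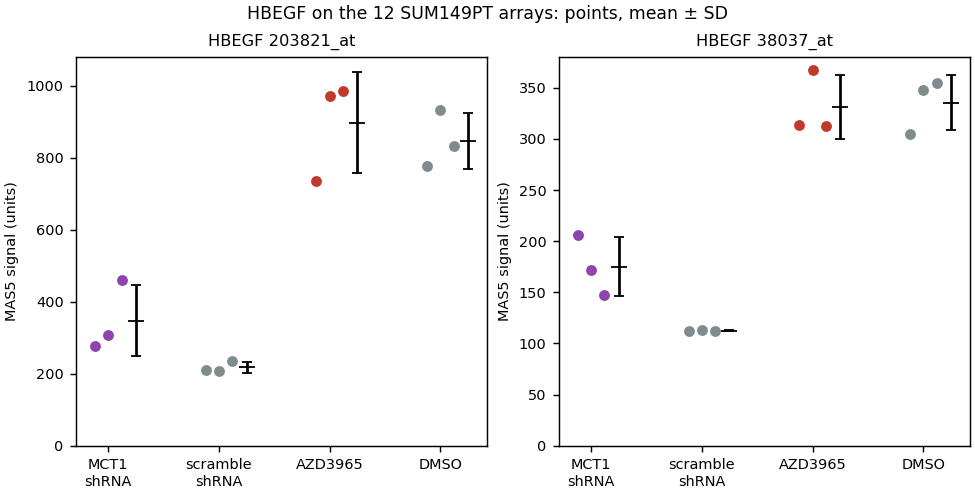
HBEGF signal by 2 probe sets on the 12 SUM149PT arrays (linear axes from 0, MAS5 units), with a point per array and the mean ± SD of 3 arrays. MCT1 shRNA arrays lie above scramble shRNA arrays in both panels, and AZD3965 arrays overlap DMSO arrays.

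The other ligand genes did not pass with the MCT1 shRNA. EREG 205767_at read 3790, 2807 and 3288 units with MCT1 shRNA, against 2456, 3080 and 2899 with scramble shRNA (0.22 ± 0.15, adjusted p = 0.412). The dimmer EREG probe set 1569583_at read 359, 460 and 417 units, against 214, 295 and 239 with scramble shRNA, without overlap (0.69 ± 0.33, adjusted p = 0.207). TGFA 205016_at read 1583, 1101 and 959 units with MCT1 shRNA, against 1079, 1278 and 1042 with scramble shRNA, and overlapped (0.07 ± 0.20, adjusted p = 0.878). The dim 211258_s_at of TGFA read 74.4, 58.2 and 53.6 units with MCT1 shRNA, against 24.8, 63.0 and 7.39 with scramble shRNA, and overlapped (0.88 ± 0.40, adjusted p = 0.187). It passed when scramble shRNA array 2 was left out (1.33, adjusted p = 0.0330). The dim 205015_s_at, left out by the filter, ran the other way from both. It read 6.29 to 18.8 units with MCT1 shRNA and 42.8 to 51.2 with scramble shRNA, with -1.10 (adjusted p = 0.0372) when all probe sets were tested. BTC read 125, 122 and 153 units with MCT1 shRNA, against 84.8, 119 and 107 with scramble shRNA (0.32 ± 0.32, adjusted p = 0.604).

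The 6 NRG1 probe sets went both ways with the MCT1 shRNA, 3 lower and 3 higher, and none passed. The brightest probe set 206343_s_at read 345, 248 and 218 units with MCT1 shRNA, against 379, 349 and 324 with scramble shRNA (-0.38 ± 0.15, adjusted p = 0.119). Only its first MCT1 shRNA array overlapped the scramble shRNA arrays, and without that array the difference was -0.56 (adjusted p = 0.0236). The dim 208230_s_at read 17.5, 6.80 and 11.0 units, against 40.8, 49.8 and 22.9 with scramble shRNA, without overlap (-0.94 ± 0.31, adjusted p = 0.0590). It passed without scramble shRNA array 3 (-1.16, adjusted p = 0.0377), with quantile normalization (adjusted p = 0.0392) and with median centring (-1.05, adjusted p = 0.0348). With array weights both of these passed (adjusted p = 0.0330 and 0.0180). The third lower one, 206237_s_at, gave -0.43 ± 0.24 (adjusted p = 0.299). The higher ones, which reached at most 66.2 units on these arrays, were 208231_at (0.46 ± 0.32), 208232_x_at (0.48 ± 0.37) and 208241_at (0.46 ± 0.32), with adjusted p = 0.424, 0.478 and 0.431.

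No receptor passed in the shRNA comparison. ERBB3 226213_at read 1809, 1711 and 1873 units with MCT1 shRNA, against 1475, 1490 and 1113 with scramble shRNA, and did not overlap (0.41 ± 0.23, adjusted p = 0.287, 95% interval -0.06 to 0.88). EGFR 201984_s_at read 2510, 2791 and 2559 units, against 2624, 2672 and 2252 with scramble shRNA (0.06 ± 0.09, adjusted p = 0.764). EGFR 224999_at read 1363, 1386 and 1421 units, against 1027, 1286 and 650.4 with scramble shRNA, without overlap (0.54 ± 0.21, adjusted p = 0.109). Its lowest value was that of scramble shRNA array 3, and it passed when scramble shRNA array 2 was left out (0.75, adjusted p = 0.0225). ERBB2 read 458, 447 and 581 units with MCT1 shRNA, against 473, 499 and 585 with scramble shRNA (-0.07 ± 0.15, adjusted p = 0.830).

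Several genes of the pathway lists passed with the MCT1 shRNA, 13 of the 55 tested in the 4 lists (23.6%), beside 10.5% of all probe sets. Only the brightest probe set of each list gene was counted, while the 10.5% covers every probe set tested. These shares are thus not like for like. ERRFI1 rose, averaging 9151 ± 368 units with MCT1 shRNA and 4951 ± 322 with scramble shRNA (SD, n = 3 each; 0.89 ± 0.06, adjusted p = 1.62e-09). It was 1 of 2 feedback genes of 14 that passed, the other being the ERK phosphatase gene DUSP6 (0.45 ± 0.12), both higher. Of 10 ligand-processing genes RHBDF1 (0.47 ± 0.13), an inactive rhomboid that guides ADAM17 to the cell surface, and the metalloprotease gene ADAM9 (0.32 ± 0.08) rose and none fell.

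Of 19 adaptors and early transducers 4 rose and 1 fell, where 10.5% of all probe sets passed in this comparison. The risers included PIK3R1 (1.03 ± 0.21), CBLB (0.81 ± 0.12) and the RAS activator SOS1 (0.52 ± 0.09), and the kinase gene AKT1 fell (-0.53 ± 0.10). Of 14 ERK-dependent transcripts 2 rose, the early-response factor EGR1 (0.75 ± 0.14) and DUSP6, and 3 fell. Those that fell were the AP-1 subunit gene FOSL1 (-0.79 ± 0.10), the urokinase receptor gene PLAUR (-0.57 ± 0.07) and the ETS factor gene ETV5 (-0.31 ± 0.09). Without scramble shRNA array 3, ADAM9 (0.23, adjusted p = 0.0997) and DUSP6 (0.37, adjusted p = 0.0686) did not pass, and PIK3R1 had a difference of 0.61 (adjusted p = 0.00254). RHBDF1 did not pass without MCT1 shRNA array 3 (0.31, adjusted p = 0.146) or scramble shRNA array 1 (0.42, adjusted p = 0.0692). Calls of ETV5 were lost without MCT1 shRNA array 1, MCT1 shRNA array 3 or scramble shRNA array 1 (adjusted p = 0.114, 0.0515 and 0.107), of ADAM9 without MCT1 shRNA array 1 or 2 (0.0913 and 0.0513) and of DUSP6 without MCT1 shRNA array 1 (0.0721). The median of the ERK-dependent list was -0.18, that of the feedback list 0.05, of the ligand-processing list 0.13 and of the adaptors -0.06, beside 0.04 over all.

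The inhibitor comparisons asked what AZD3965 changed within 24 h in each line. No ERBB or ligand probe set passed in any of them. By limma 0 of 22 passed in HS578T (1 at an unadjusted p below 0.05), beside 0.137% of all probe sets. In SUM149PT 0 passed (3 unadjusted), beside 0.0122% of all, and in SUM159PT 0 passed (0 unadjusted), beside 0% of all. The smallest adjusted p of the set was 0.405 in HS578T, 0.270 in SUM149PT and 0.843 in SUM159PT.

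The 95% intervals show how large a change in signal the array-to-array spread leaves room for. That spread is possibly technical, so the intervals do not bound a change across separate cultures. For the brightest probe set of each gene, the 95% interval of the AZD3965 minus DMSO difference reached at most 1.20-fold for EGFR in HS578T, 1.20-fold in SUM149PT and 1.30-fold in SUM159PT, the narrowest of the 8 genes. It was widest for BTC, reaching 1.95-fold, 1.94-fold and 1.89-fold. These folds are the far ends of the intervals and not the smallest change that could have been detected. The other tested EGFR probe sets had wider intervals than the brightest in every line. They reached 2.20-fold for 211551_at in HS578T, and for 224999_at 1.75-fold in SUM149PT and 1.655-fold in SUM159PT. EGFR as a gene is thus not bounded by its brightest probe set alone. The fold is that of the signal plus 16.

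In SUM149PT 3 of the 22 probe sets had AZD3965 and DMSO arrays that did not overlap, and none passed. These were the brightest probe sets of EREG and TGFA and EGFR 224999_at, all lower with AZD3965. They are shown for that lack of overlap, and its share over all probe sets was not computed. The median of the 22 was 0.04, beside 0.02 over all. The largest difference of the set ran higher, that of ERBB3 1563253_s_at, whose arrays overlapped (0.84 ± 0.35, adjusted p = 0.296). EREG 205767_at read 5193, 4503 and 3369 units with AZD3965, against 5322, 5243 and 6078 with DMSO, without overlap (-0.37 ± 0.15, adjusted p = 0.295). TGFA 205016_at read 1556, 1681 and 1265 units with AZD3965, against 1812, 1800 and 2062 with DMSO, again without overlap (-0.34 ± 0.20, adjusted p = 0.493). EGFR 224999_at read 1858, 1982 and 1894 units with AZD3965, against 3131, 2148 and 2274 with DMSO, also without overlap (-0.37 ± 0.21, adjusted p = 0.449). The second EREG probe set, 1569583_at, lay the other way and overlapped, with 146, 212 and 270 units with AZD3965, against 219.5, 156.5 and 96.0 with DMSO (0.41 ± 0.33, adjusted p = 0.648). The smallest adjusted p in this line was that of the dim NRG1 208231_at, which read 10.5, 34.9 and 46.9 units with AZD3965, against 5.06, 25.5 and 1.89 with DMSO, and overlapped (0.81 ± 0.32, adjusted p = 0.270). In SUM159PT TGFA read 81.0, 56.3 and 48.0 units with AZD3965, against 67.1, 80.6 and 115 with DMSO, and overlapped (-0.41 ± 0.20, adjusted p = 0.843), as did EREG (2168, 2373 and 1743 units against 2283, 2156 and 2397; -0.13 ± 0.15, adjusted p = 0.947).

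HBEGF, the gene that passed with the shRNA, read 737, 972 and 986 units with AZD3965 in SUM149PT, against 778, 933 and 833 with DMSO by 203821_at (0.07 ± 0.15, adjusted p = 0.886). In HS578T it read 638, 679.8 and 709.8 units with AZD3965, against 700.3, 617 and 548 with DMSO (0.12 ± 0.15), and in SUM159PT 1148, 1094 and 1253 units, against 1027, 979 and 1240 (0.11 ± 0.15). All 3 pairs of groups overlapped.

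The lowest unadjusted p of the set in HS578T was that of EGFR 211551_at, which read 74.4, 85.1 and 92.9 units with AZD3965, against 148, 171 and 118 with DMSO, without overlap (-0.68 ± 0.22, adjusted p = 0.405). It passed with array weights (-0.77, adjusted p = 0.0355). The brightest EGFR probe set read 872, 766 and 782 units with AZD3965 in HS578T, against 851, 779.5 and 898 with DMSO, and overlapped (-0.06 ± 0.09, adjusted p = 0.985). In SUM149PT it read 2681, 3228 and 3316 units with AZD3965, against 2946, 2947 and 2865 with DMSO (0.07 ± 0.09). ERBB2 in SUM149PT read 433, 493 and 639 units with AZD3965, against 353, 503 and 411 with DMSO (0.29 ± 0.15, adjusted p = 0.401). Of the 4 pathway lists with 10 or more genes, a single gene passed in any line: EGR1 fell with AZD3965 in HS578T, averaging 1144 ± 250.2 units with AZD3965 and 1808 ± 77.6 with DMSO (-0.68 ± 0.14, adjusted p = 0.0423). That call held without AZD3965 array 3 and was lost without any other of the 6 arrays (adjusted p = 0.0783 to 0.256).

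**Figure D5:**
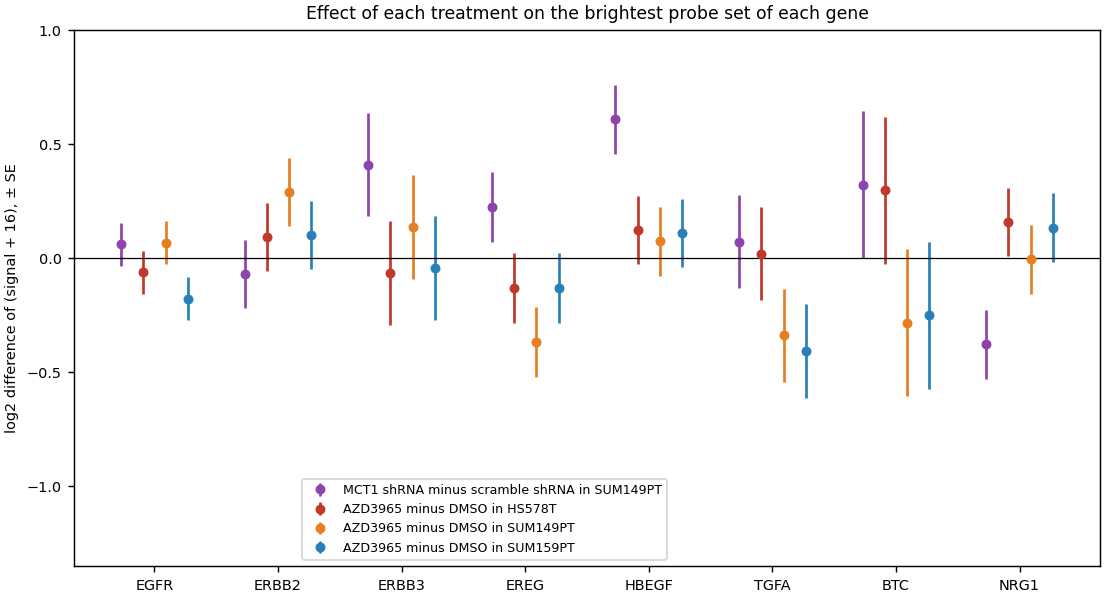
Log2 difference of (signal + 16) with SE for the brightest probe set of each gene, MCT1 shRNA minus scramble shRNA in SUM149PT and AZD3965 minus DMSO in each line. HBEGF with MCT1 shRNA (0.61) is the point that passed, and every AZD3965 value lies between -0.41 and 0.30.

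Differences between the effects were tested as such. By limma, 0 of the 22 probe sets had an AZD3965 effect that differed between the 3 lines (1 at an unadjusted p below 0.05, smallest adjusted p 0.622), beside 0.0519% of all. For the difference between the MCT1 shRNA and AZD3965 effects in SUM149PT 0 passed (6 unadjusted), beside 5.13% of all. HBEGF came nearest, at 0.58 ± 0.18 for 38037_at (adjusted p = 0.0609) and 0.54 ± 0.21 for 203821_at (adjusted p = 0.152), followed by EGFR 224999_at (0.91 ± 0.30, adjusted p = 0.0746) and EREG 205767_at (0.59 ± 0.22, adjusted p = 0.121). HBEGF 38037_at passed when MCT1 shRNA array 3 was left out (0.69, adjusted p = 0.0334) and with a stricter filter on dim probe sets (adjusted p = 0.0412). EGFR 224999_at (1.13, adjusted p = 0.0180) and NRG1 206237_s_at (-1.06, adjusted p = 0.0469) passed without scramble shRNA array 2, and EREG 205767_at passed with array weights (0.69, adjusted p = 0.0349). The shRNA and inhibitor experiments differ in duration, vector and selection as well as in the way MCT1 was targeted, and these cannot be told apart.

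Across the 24 arrays, the genes whose log2 signal most closely followed the brightest probe set of each ERBB or ligand gene were found as a description. The arrays share 3 lines, so such likeness mainly follows the order of the lines. For EGFR and NRG1, whose probe sets disagreed, the likeness is that of the brightest probe set alone. EREG ran with BNC1, a basonuclin of squamous epithelia (Pearson r = 0.998), SERPINB5, the serpin maspin (r = 0.996), and CREG1 (r = 0.995). ERBB3 ran with DUSP10 (r = 0.997), ID4 (r = 0.996) and the keratin gene KRT19 (r = 0.995). EGFR ran with PRXL2A (r = 0.993), the elastase inhibitor gene PI3 (r = 0.990) and the CBL family gene CBLC (r = 0.990). TGFA ran with the prostaglandin E synthase gene PTGES (r = 0.993), F8 (r = 0.993) and ANXA3 (r = 0.990). NRG1 ran with TENT4A (r = 0.977), PRKD1 (r = 0.977) and ZNRF1 (r = 0.974). HBEGF, ERBB2 and BTC had looser companions, led by MGAT4B (r = 0.931), METTL22 (r = 0.933) and NCOA7 (r = 0.957).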

How the data were processed

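RNA of 24 samples was measured on Affymetrix arrays. The authors deposited intensity on a linear scale. Per the submitters' processing notes it came from MAS5, of a version the sources used here do not give. The mean after trimming 2% at each end was 500.1 on every array, and no further normalization was applied. Of 54675 probe sets, 41097 had 1 symbol, 1801 several and 11777 none, and members were matched by symbol. The log2 of the deposited intensity plus 16 was taken, which understates changes of dim probe sets. After leaving out 62 control probe sets, the 32768 probe sets with a mean at or above the 40th percentile (5.58) were tested. A filter on the mean over all groups can pass a probe set through 1 bright group. A linear model of 8 group means was fitted with limma 3.58.1 in R 4.3.3 (16 residual and 5.96 prior degrees of freedom), with two-sided tests and Benjamini-Hochberg adjustment over all probe sets. The procedure was tested on simulated data with changed probe sets. The number of arrays limits the precision.

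Named were every probe set of the listed genes, the brightest leading. For each pathway list up to 3 called genes each way were named, by size, and for each member the 3 genes most like its brightest probe set. Genes in lists were represented by their brightest probe set. Shares of list genes and shares of all probe sets, which include dimmer ones, are therefore not like for like. Of the list genes 8 were not analysed here, and NF1 was too dim. The members and lists were chosen with earlier results of these data known, so they are no independent support. Alternatives were quantile normalization, median centring, offsets of 1 and 64, no filter, a filter at the 60th percentile, 1 probe set per gene, only the groups compared, a replicate block, array weights and leaving out each array. Gene positions and promoters came from RefSeq tables (GRCh38.p14), used for names and sequence and not to place probes. The gene targeted by the shRNA is not reported here.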

Additional observations from a re-analysis of the deposited data

Results flagged for a closer look

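In SUM149PT the effect of the MCT1 shRNA differed from that of AZD3965 for 12 of the 55 genes tested in the pathway lists (21.8%) by the limma test of the difference itself, beside 5.13% of all probe sets, and for no ERBB or ligand gene. The share of list genes counts only the brightest probe set of each, so it is not like for like with the share of all. Effects are given as MCT1 shRNA minus scramble shRNA, then AZD3965 minus DMSO, on the log2 scale, with the adjusted p of their difference. ERRFI1 showed 0.89 and -0.09 (adjusted p = 2.38e-07). Among adaptors and transducers the effects were 1.03 and -0.32 for PIK3R1 (0.00961), 0.81 and 0.00 for CBLB (0.00871), 0.52 and -0.15 for SOS1 (0.00260), 0.48 and -0.08 for EPS8 (0.00442) and 0.22 and -0.18 for EPS15 (0.0391). They were -0.53 and 0.22 for AKT1 (0.00284) and -0.30 and 0.25 for HRAS (0.0250). Among ERK-dependent transcripts they were -0.79 and 0.09 for FOSL1 (0.00105), -0.57 and 0.10 for PLAUR (0.000119) and 0.75 and 0.03 for EGR1 (0.0322). For the metalloprotease gene ADAM9 they were 0.32 and -0.25 (0.00638). When each array was left out, 9 to 14 of the 55 passed. EGR1, HRAS and EPS15 each lost the call without any of several arrays, at adjusted p of up to 0.0849, 0.0676 and 0.0950. EPS15 lost it without any MCT1 shRNA array, DMSO array 1 or 2, AZD3965 array 2 or 3, or scramble shRNA array 1 or 2. EGR1 lost it without DMSO array 1 or 2, AZD3965 array 2 or 3, MCT1 shRNA array 3 or scramble shRNA array 1 or 3. HRAS lost it without DMSO array 1 or 3, MCT1 shRNA array 3 or scramble shRNA array 1. Neither EPS15 nor HRAS passed with the MCT1 shRNA (adjusted p = 0.0872 and 0.0579) or with AZD3965 (0.309 and 0.278). Without scramble shRNA array 3, EGR1 did not pass (0.68, adjusted p = 0.0552).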

How the results depend on the processing

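Of the results on called ERBB and ligand probe sets under the alternatives, 644 kept direction and call, 15 lost the call and 0 reversed. The number of these probe sets called in the shRNA comparison (2) was 1 with 1 probe set per gene, 0 with only the arrays compared, 4 with array weights and 1 to 4 when each array was left out. With AZD3965 in HS578T it was 1 with array weights, in place of 0. For the shRNA effect minus the AZD3965 effect it was 1 with the filter at the 60th percentile, 1 with array weights and 0 to 2 when each array was left out, in place of 0. For HS578T minus SUM149PT (16) it was 9 at the 60th percentile and 8 with 1 probe set per gene, for HS578T minus SUM159PT (11) it was 6 and 3, and for SUM149PT minus SUM159PT (15) it was 7 with 1 probe set per gene; these settings test fewer probe sets. Over all probe sets, calls ran from 748 to 4973 for the shRNA (3450), 12 to 408 for AZD3965 in HS578T (45), 0 to 10 in SUM149PT (4), 0 to 15 in SUM159PT (0), 0 to 86 for the difference between lines (17) and 576 to 2724 for the shRNA effect minus the AZD3965 effect (1680). They ran from 9079 to 19728, 8207 to 17925 and 8397 to 17876 for the 3 pairs of lines (18146, 15782 and 16502). Leaving out each array for the 55 pathway-list genes was chosen after seeing the data, and gave 11 to 16 calls for the shRNA (13), 0 to 1 for AZD3965 in HS578T (1) and 0 to 3 in SUM149PT (0). Median centring shifted all probe sets by -0.11 in the shRNA comparison, 0.16 with AZD3965 in HS578T and -0.10 for HS578T minus SUM149PT. With it the share of calls that were higher was 28.0% in the shRNA comparison (53.3% without), 97.6% with AZD3965 in HS578T (73.3%; 83.1% with quantile normalization) and 50.0% in SUM149PT (75.0%). HBEGF remained called in the shRNA comparison (0.50 and 0.45, adjusted p = 0.0489 and 0.0494). Same-numbered arrays correlated at -0.13 to 0.04 in their deviations. With 3 arrays a group this cannot settle whether they shared a culture or batch, and the labels state no pairing. With a replicate block the HBEGF adjusted p was 0.00947 and 0.0225, and HBEGF 203821_at also passed for SUM149PT minus SUM159PT (0.0388). The causes of these changes were not tested, other than the number of probe sets or arrays. With 3 arrays a group, and signals of HS578T EREG, ERBB3 and TGFA near the floor, small changes could not be detected.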

Other observations

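SUM149PT cells were measured in both experiments, and the signals of HBEGF 203821_at and EGFR 224999_at stood apart between them. HBEGF 203821_at read 276 to 460 units with MCT1 shRNA and 207 to 236 with scramble shRNA, beside 737 to 986 with AZD3965 and 778 to 933 with DMSO. EREG 205767_at overlapped in part and read 2807 to 3790 units with MCT1 shRNA and 2456 to 3080 with scramble shRNA, beside 3369 to 5193 with AZD3965 and 5243 to 6078 with DMSO. EGFR 224999_at read 1363 to 1421 units with MCT1 shRNA and 650.4 to 1286 with scramble shRNA, beside 1858 to 1982 with AZD3965 and 2148 to 3131 with DMSO. ERBB3 226213_at also overlapped in part, at 1711 to 1873 units with MCT1 shRNA and 1113 to 1490 with scramble shRNA, beside 1027 to 1273 with AZD3965 and 949 to 1044 with DMSO. No test was made, since the experiments differed in vector, selection and vehicle, which cannot be told apart from the experiment itself.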
